A study of Homo sapiens with 8 samples.

Results

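The genes described here encode the regulators of pre-mRNA splicing known as SR proteins and hnRNPs, together with the kinases and relatives that act with them. They were chosen by symbol: protein-coding genes named SRSF and a number, every HNRNP gene, CLK1 to CLK4, TRA2A and TRA2B, SRPK1 and SRPK2, and PTBP1 to PTBP3. The rule gave 49 genes, of which 45 had a probe matched through its transcript accession and were measured among 19046 genes in all. HNRNPA1L3, HNRNPCL2, HNRNPCL3 and HNRNPCL4 had no matched probe and were not analysed here. The 45 comprised 12 SR genes, 22 hnRNP genes, 4 CLK genes, 3 PTBP genes, 2 SRPK genes and 2 TRA2 genes. The RNA was from A549, a long-established human lung carcinoma line, hybridised to 8 one-colour Agilent arrays. In the first series, the cells received a vehicle control or 1.25, 5 or 20 μg/mL EEDS, an ethanol extract of Descurainia sophia seeds. In the second series, they received a vehicle control or 3.75, 15 or 60 nM helveticoside, a cardiac glycoside and a constituent of these seeds. The RNA of 3 cultures was combined for every array, and with 1 array per dose a single dose has no replicate error and no test. The labels give 48 h of exposure whereas the study's methods state a shorter one for the arrays. All groups are the same unmodified cell line, and a single line stands for every result.

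Pre-mRNA splicing removes introns and joins exons, and the choice of exons is set largely by RNA-binding proteins. SR proteins carry a domain rich in arginine and serine and in general promote the inclusion of exons to which they bind, whereas many hnRNPs, among them the polypyrimidine tract binding proteins, often repress exons. SRPK kinases phosphorylate SR proteins in the cytoplasm and CLK kinases phosphorylate them in the nucleus, which alters where SR proteins reside and how they act. Many of these genes are known to control their own transcripts through exons that carry a premature stop codon and direct the RNA to nonsense-mediated decay, the pathway that degrades such RNA. An array probe reads a short stretch of a transcript and does not by itself tell spliced forms apart.

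Between 54.5% and 64.9% of probes per array were well above background by the scanner software, with the lower shares in the helveticoside series, and no spot was saturated. Of the 45 genes, 43 were well above background on all 8 arrays. The exceptions were SRSF12, on 5 arrays, and TRA2A, on 7. All 7 measured epithelial and A549 markers (among them KRT8, KRT18 and EPCAM) were well above background on the 8 arrays. Of the markers of other cell types, CD3E, PECAM1, VWF and PDGFRA were above background on 0 arrays, while PTPRC, CD14, CDH5 and COL1A1 were above it on all 8, and the part of those 4 in any result was not tested. The vehicle arrays of the 2 series differed by a median of 0.14 on the log2 scale (sign ignored) over the 45 genes, against 0.28 over all genes. Among the 45, 41 differed by less than 0.5. SRSF11 and SRSF12 were the exceptions beyond 2-fold, with 1.29 and 1.54 more on the helveticoside vehicle array, and TRA2A and PTBP1 were 0.99 and 0.94 lower there.

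The 250 bases before the transcription start are shown for CLK1 and CLK4, which stood above the vehicle at every dose of both agents, and for SRSF6 and SRSF7, which stood below it at the low and middle doses of both. The pairs were chosen after their values were seen. The sequences are from RefSeq on GRCh38.p14, are written 5′ to 3′ on the strand of the gene and end at the base before its first listed start. Capitals mark the letters CGTCA, the reverse complement of TGACG, which forms part of the cyclic AMP response element. CLK1 (chr2:200864659-200864908, minus strand) and CLK4 (chr5:178627051-178627300, minus strand) each held it 1 time, starting 49 and 114 bases before the start. SRSF6 (chr20:43457646-43457895, plus strand) and SRSF7 (chr2:38751495-38751744, minus strand) held neither TGACG nor CGTCA.
CLK1 promoter: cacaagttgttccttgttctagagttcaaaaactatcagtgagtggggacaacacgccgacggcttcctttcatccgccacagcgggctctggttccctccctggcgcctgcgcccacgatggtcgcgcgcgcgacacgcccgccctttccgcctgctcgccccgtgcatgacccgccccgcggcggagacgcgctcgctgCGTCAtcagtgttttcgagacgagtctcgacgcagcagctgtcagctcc
CLK4 promoter: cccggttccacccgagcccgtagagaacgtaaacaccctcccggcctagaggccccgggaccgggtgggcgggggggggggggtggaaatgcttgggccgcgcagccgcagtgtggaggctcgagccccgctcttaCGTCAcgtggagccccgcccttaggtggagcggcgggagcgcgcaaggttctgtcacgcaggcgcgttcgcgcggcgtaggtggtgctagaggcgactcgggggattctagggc
SRSF6 promoter: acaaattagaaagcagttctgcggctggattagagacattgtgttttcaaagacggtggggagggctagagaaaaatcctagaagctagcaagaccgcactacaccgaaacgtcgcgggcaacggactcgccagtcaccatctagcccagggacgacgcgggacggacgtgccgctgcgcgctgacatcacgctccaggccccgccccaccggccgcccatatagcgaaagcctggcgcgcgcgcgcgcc
SRSF7 promoter: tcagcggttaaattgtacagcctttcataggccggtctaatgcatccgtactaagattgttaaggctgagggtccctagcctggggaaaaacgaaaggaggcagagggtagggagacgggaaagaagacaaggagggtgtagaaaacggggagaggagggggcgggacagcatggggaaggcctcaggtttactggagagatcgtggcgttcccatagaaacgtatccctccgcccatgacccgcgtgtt
TGACG or CGTCA was found in 16 of the 42 promoters at hand for the measured genes (38.1%; HNRNPA1, SRSF2 and TRA2A are without one here) and in 5914 of the promoters of 27305 genes (21.7%). Among genes picked after their values were seen, CLK3, HNRNPH3 (by its brighter probe) and PTBP1, above the vehicle on every treated array, held neither form. SRSF3, SRSF5, TRA2B, HNRNPD and HNRNPDL, below it at both middle doses, held 1 form. The 27305 genes reach beyond the 19046 measured genes, so the shares above come from unlike sets, and their difference was not tested. Whether the letters go with the direction of the ratios was not tested. A match is a description of the letters in this window and says nothing of a factor bound there.

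Values below are log2 levels of the quantile-normalized signal intensity, and a difference from the vehicle is the log2 ratio of a treated array to the vehicle array of its own series. Because the RNA came from whole cultures, fewer cells with a transcript and less of it per cell cannot be told apart. The SR genes were on balance below the vehicle, except at 20 μg/mL EEDS, where 6 of 12 were higher and 6 lower. The CLK genes were on balance above the vehicle, while the hnRNP genes lay on both sides of it. At 5 μg/mL EEDS, 3 of the 45 genes exceeded the vehicle by over 2-fold and 10 lay below it by over 2-fold, where 7.36% and 8.53% of all genes passed these limits. At 15 nM helveticoside, 1 was higher and 9 were lower, against 7.13% and 8.12% of all genes. Over the 11494 genes whose probe was well above background on every array, the shares were 7.29% and 7.51% with EEDS and 5.65% and 6.07% with helveticoside. At the top doses the balance moved. At 20 μg/mL EEDS, 8 genes were higher and 3 lower (13.4% and 14.6% of all genes), and at 60 nM helveticoside 4 were higher and 9 lower (10.9% and 12.9%). Over the same 11494 genes these shares were 14.3% and 16.2% with EEDS and 10.9% and 13.3% with helveticoside. At the low doses few passed: 2 higher and 1 lower at 1.25 μg/mL EEDS (4.19% and 3.7%), and 1 higher and 2 lower at 3.75 nM helveticoside (3.39% and 4.36%). The median log2 ratio over the 45 genes was 0.02, -0.18 and 0.25 with rising EEDS and -0.10, -0.31 and 0.00 with rising helveticoside, against medians between -0.03 and 0.02 over all genes.

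**Figure D1:**
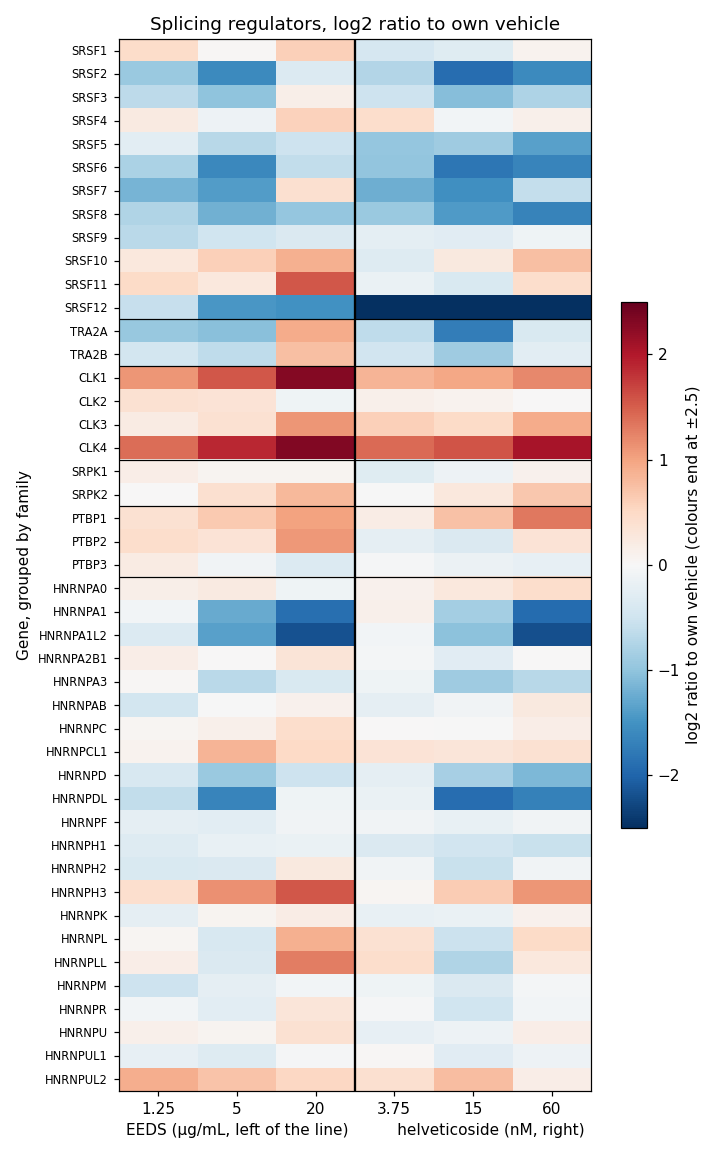
Log2 ratio to the vehicle of the own series (colour, red higher and blue lower, on a scale that ends where the bar ends) for the 45 genes (rows, grouped by family) at 3 doses of EEDS in μg/mL and 3 of helveticoside in nM (columns), with 1 array per column. CLK1 and CLK4 are red in all 6 columns, most SR genes are blue at the low and middle doses, and HNRNPA1 and HNRNPA1L2 are darkest at the top doses; the SRSF12 values under helveticoside come from signal that was not well above background.

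The SR genes were lowest at the middle doses. Their median log2 ratio was -0.62, -0.85 and -0.10 at 1.25, 5 and 20 μg/mL EEDS and -0.62, -0.98 and -0.69 at 3.75, 15 and 60 nM helveticoside. Of the 12, 6 were more than 2-fold lower at the middle dose of each agent, against 8.53% and 8.12% of all genes. Without SRSF12, 5 of 11 were lower at each. SRSF3 narrowly passed at 5 μg/mL EEDS, with a log2 ratio of -1.01 that became -0.96 with the signal as scanned. At 20 μg/mL EEDS 1 of the 12 was lower and 1 higher (14.6% and 13.4% of all genes). The sign of the median depended on the scaling there, being 0.11 when arrays were scaled to the 75th percentile, and on SRSF12, being 0.15 over the other 11 genes. At 60 nM helveticoside 5 of the 12 were still more than 2-fold lower and none higher (12.9% and 10.9% of all genes).

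SRSF6, an SR protein that promotes exon inclusion, was at 13.29 on the EEDS vehicle array and at 12.49, 11.68 and 12.67 with rising dose. In the helveticoside series it was at 13.09, then 12.11, 11.28 and 11.45. All treated arrays were below their vehicle, by 3.04-fold and 3.49-fold at the middle doses, and the top EEDS array had regained about 1 log2 unit (0.99) over the middle one. SRSF2, which binds exonic enhancers and is also linked to transcription elongation, stood at 13.83, 12.90, 12.23 and 13.49 over the EEDS series. Over the helveticoside series SRSF2 stood at 13.59, 12.86, 11.69 and 11.99. It was thus 3.02-fold below the vehicle at 60 nM helveticoside but 1.27-fold below it at 20 μg/mL EEDS.

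SRSF7 and SRSF3, named after their values were seen, followed the same outline. SRSF7, an SR protein with a zinc knuckle that also takes part in RNA export, was at 13.38, 12.22, 11.99 and 13.77 with EEDS and at 13.49, 12.28, 11.95 and 12.89 with helveticoside. It was the lowest at the middle dose in both series, and at 20 μg/mL EEDS it was above its vehicle. SRSF3, the smallest of the classical SR proteins, read 14.97, 14.30, 13.96 and 15.11 with EEDS and 14.74, 14.22, 13.67 and 13.96 with helveticoside. Its middle-dose arrays were 2.01-fold and 2.10-fold below the vehicle.

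SRSF8, a close relative of SRSF2, stayed low at the top dose. Its levels were 9.06, 8.31, 7.87 and 8.11 over the EEDS series and 8.66, 7.73, 7.25 and 6.98 over the helveticoside series, so that every treated array was below its vehicle. The top helveticoside array was 3.20-fold lower. SRSF5, also named after its values were seen, was at 11.63, 11.36, 10.93 and 11.11 with EEDS and at 11.63, 10.67, 10.75 and 10.27 with helveticoside, where the top dose was 2.57-fold below the vehicle.

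SRSF12 is a member of the family with a more restricted range of tissues. Its levels were 6.45, 5.87, 4.99 and 4.95 over the EEDS series, which is 2.84-fold lower at the top dose, although the log2 ratio of -1.50 there became -0.68 with the signal as scanned and -0.70 with normexp correction. The helveticoside vehicle array read 7.99, and its probe was not well above background at any helveticoside dose. On the scale of the processed signal SRSF12 was at least 4.09-fold lower at 3.75 nM, at least 6.82-fold lower at 15 nM and at least 5.72-fold lower at 60 nM. Those bounds assume that the background is subtracted. The log2 ratios at 15 and 60 nM were -1.82 and -2.06 with the signal as scanned and -1.67 and -1.90 with the authors' values, all smaller than the bounds.

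SRSF11, SRSF10 and SRSF1 had the highest log2 ratios of the SR genes at the top EEDS dose. SRSF11, found in the nucleus with other splicing factors, was at 11.35, 11.82, 11.62 and 12.90 with EEDS and at 12.64, 12.48, 12.25 and 13.08 with helveticoside. It reached 2.94-fold above the vehicle at 20 μg/mL EEDS, whereas at 60 nM helveticoside it was 1.36-fold above a vehicle that was itself higher. Against that other vehicle array, the log2 ratio at 20 μg/mL EEDS was 0.26. SRSF10, which in its dephosphorylated form is a splicing repressor, read 11.61, 11.88, 12.20 and 12.49 with EEDS and 11.53, 11.22, 11.77 and 12.28 with helveticoside. By this probe it was above its vehicle at the middle and top doses of both agents, but at 15 nM helveticoside its other probes had log2 ratios of -0.71 and -0.20, and at 5 μg/mL EEDS 1 of them had -0.26. SRSF1, the founding SR protein, ranged from 8.45 to 9.05 with EEDS (8.45, 8.92, 8.49 and 9.05) and stood at 8.70, 8.29, 8.39 and 8.79 with helveticoside, within 1.51-fold of the vehicle at the middle and top doses. SRSF4 and SRSF9, the other two, were less than 2-fold from the vehicle on every array.

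**Figure D2:**
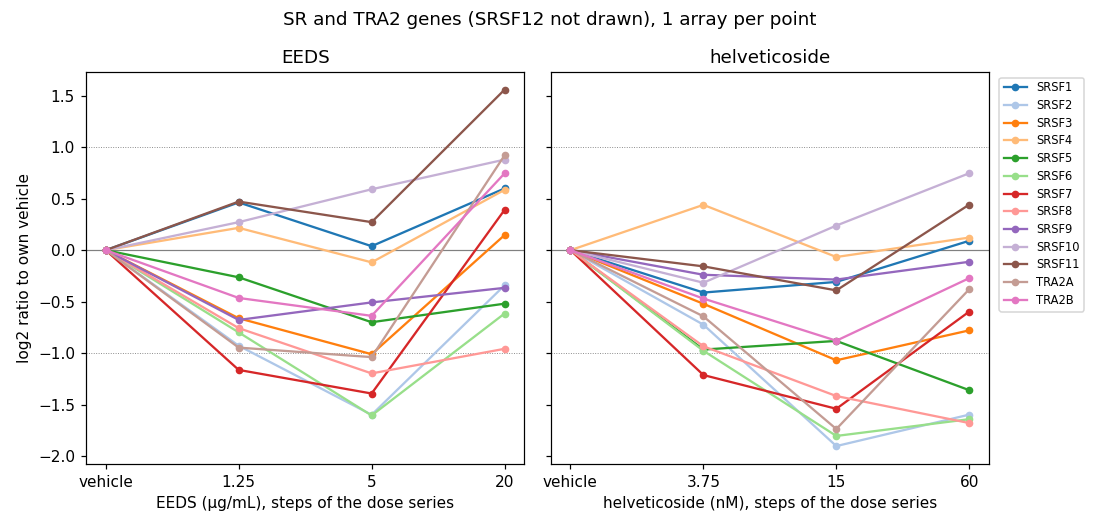
Log2 ratio to the own vehicle (vertical axis) along the steps of the EEDS series in μg/mL (left) and of the helveticoside series in nM (right) for 11 SR genes and both TRA2 genes, 1 array per point, with dotted lines at 2-fold; SRSF12 is not drawn because its helveticoside values were not well above background. By the brightest probe of each gene, SRSF2, SRSF3, SRSF6, SRSF7, TRA2A and TRA2B dip at the middle dose of both agents. They stand higher at the top dose, by a wider margin for EEDS.

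TRA2A and TRA2B, relatives of the Drosophila sex-determination factor Transformer 2 that promote exon inclusion, had the same dip by the probes used. TRA2B was at 13.31, 12.85, 12.67 and 14.06 over the EEDS series and at 13.18, 12.71, 12.30 and 12.91 over the helveticoside series. At 20 μg/mL EEDS it was 1.68-fold above the vehicle. At 60 nM helveticoside its log2 ratio was -0.27, which became 0.04 with scaling to the 75th percentile. The other TRA2B probe had log2 ratios of -0.18, -0.07 and 0.85 with rising EEDS. With rising helveticoside that probe had -0.12, -0.12 and 0.32, so it did not have the same dip. TRA2A was at 8.20, 7.26, 7.17 and 9.13 with EEDS. With helveticoside it was at 7.21, 6.57, 5.47 and 6.83, and at 15 nM its probe was not well above background. On the scale of the processed signal it was at least 3.33-fold lower there, which is the measured ratio itself because the dim signal exceeded the floor. This log2 ratio of -1.74 shrank to -0.75 with the signal as scanned and to -0.63 with the authors' values, so the size of the TRA2A dip depended on the background.

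Over the whole list, 17 of 45 genes had their lowest of 4 arrays at 5 μg/mL EEDS and 21 at 15 nM helveticoside, against 13.7% and 26% of all genes (12.5% and 14.6% of the 11494 genes well above background throughout). For 14 the lowest array was the middle dose in both series (6.77% of all genes). Between the middle and the top dose, 36 of 45 genes were higher at the top in the EEDS series and 35 in the helveticoside series, by a median of 0.32 and 0.27 over the 45. Over all 19046 genes, 10132 and 10490 were higher at the top, with medians of 0.01 and 0.02. The dip and the higher top dose were also seen in other splicing genes. In the 10 lists of other splicing genes described at the end, 118 and 125 of 144 genes were higher at the top than at the middle dose, and 29 had the middle dose as the lowest array in both series, 8 of 14 genes of the U4/U6.U5 tri-snRNP and 6 of 16 of the U2 snRNP and branch site among them. This count was chosen after the values were seen, and each middle dose is 1 array, so that a property of that array and of the dose cannot be told apart.

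The CLK genes moved the other way. CLK1, which phosphorylates SR proteins in the nucleus, was at 9.50 on the EEDS vehicle array and at 10.61, 11.06 and 11.80 with rising dose, and at 9.78, 10.63, 10.75 and 10.98 in the helveticoside series. Every step was higher than the one before in both series, and the top doses were 4.91-fold and 2.29-fold above the vehicle. By the other CLK1 probe the log2 ratios at the top doses were 2.25 with EEDS and 1.88 with helveticoside, against 2.30 and 1.20 here. CLK4, its closest relative, was at 7.91, 9.31, 9.79 and 10.22 with EEDS and at 7.53, 8.94, 9.11 and 9.59 with helveticoside. It stood 4.96-fold and 4.15-fold above the vehicle at the top doses, and most of the distance was already covered at the low dose (2.64-fold and 2.66-fold). CLK3 read 11.75, 11.95, 12.13 and 12.86 with EEDS and 11.68, 12.28, 12.17 and 12.61 with helveticoside, being above its vehicle on all 6 arrays and 2.15-fold and 1.91-fold above it at the top. CLK2 differed from its relatives: it was at 7.95, 8.33, 8.29 and 7.85 with EEDS and at 7.54, 7.66, 7.63 and 7.54 with helveticoside, within 1.26-fold of the vehicle at the middle and top doses.

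Of the SRPK kinases, SRPK2 was at 9.39, 9.41, 9.79 and 10.20 with EEDS and at 9.39, 9.39, 9.65 and 10.07 with helveticoside. The top doses were 1.74-fold and 1.60-fold above the vehicle. SRPK1 stayed near its vehicle, at 12.53, 12.68, 12.60 and 12.60 with EEDS and at 12.59, 12.29, 12.45 and 12.70 with helveticoside.

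PTBP1, which represses many alternative exons outside the nervous system, was at 10.32, 10.70, 10.97 and 11.33 over the EEDS series and at 9.38, 9.56, 10.11 and 10.69 over the helveticoside series. It was higher at each step in both, reaching 2.02-fold and 2.48-fold above the vehicle. PTBP2, the form best known from neurons, was at 8.70, 9.15, 9.04 and 9.79 with EEDS and at 8.81, 8.59, 8.45 and 9.16 with helveticoside, being 2.13-fold above the vehicle at the top EEDS dose. PTBP3 moved little, from 13.08 through 13.29 and 12.99 to 12.75 with EEDS and from 13.08 through 13.06 and 12.93 to 12.88 with helveticoside.

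**Figure D3:**
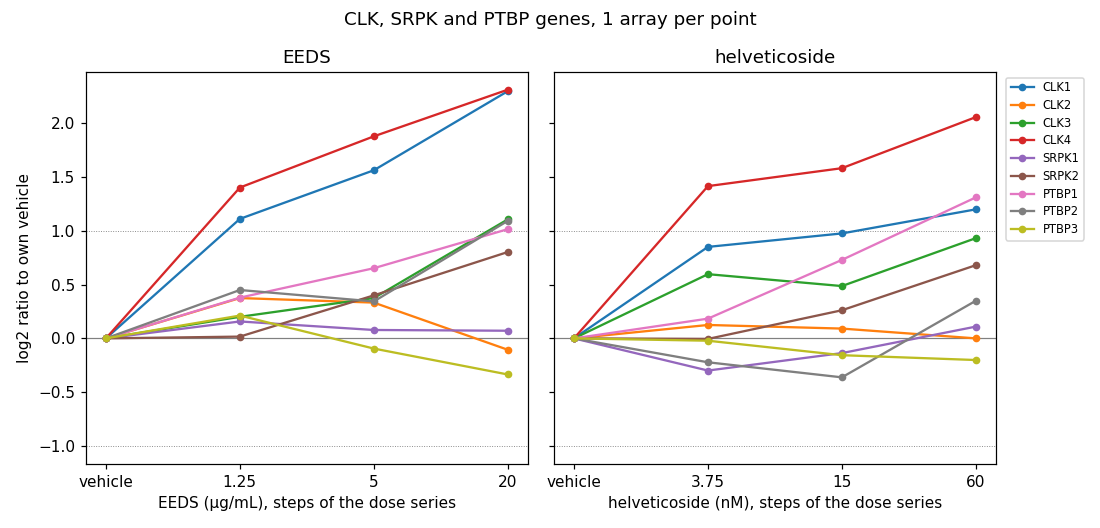
Log2 ratio to the own vehicle (vertical axis) along the steps of the EEDS series in μg/mL (left) and of the helveticoside series in nM (right) for the CLK, SRPK and PTBP genes, 1 array per point, with dotted lines at 2-fold. CLK1 and CLK4 lie above the vehicle from the low dose on and end at 2.30 and 2.31 with EEDS, while CLK2, SRPK1 and PTBP3 stay close to 0.

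Most of the hnRNP genes, like most genes measured, stayed within 2-fold. Of the 22, 2 passed this limit upward and 2 downward at 20 μg/mL EEDS, against 13.4% and 14.6% of all genes. At 60 nM helveticoside 1 was higher and 4 lower, against 10.9% and 12.9% of all genes. HNRNPA1, an abundant repressor of exons, was at 16.13, 16.05, 14.87 and 14.25 with EEDS and at 15.96, 16.09, 15.10 and 14.04 with helveticoside. The low dose lay close to the vehicle in both series, and the middle and top doses were lower, by 3.68-fold and 3.77-fold at the top. HNRNPA1L2, a retained copy of HNRNPA1 that is nearly identical to it, read 15.76, 15.41, 14.40 and 13.57 with EEDS and 15.81, 15.74, 14.78 and 13.61 with helveticoside. Its probes may read HNRNPA1 transcripts, so the 2 genes are not separate observations. HNRNPCL1, a copy of HNRNPC, is uncertain in the same way. Its levels were 9.71, 9.80, 10.56 and 10.20 with EEDS and 9.63, 9.98, 9.92 and 10.01 with helveticoside, at most 1.81-fold above the vehicle.

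Other hnRNP genes that were lower included HNRNPD and HNRNPDL, related proteins that bind AU-rich RNA. HNRNPDL was at 11.49, 10.88, 9.83 and 11.38 with EEDS and at 11.56, 11.40, 9.66 and 9.88 with helveticoside. Both middle doses were far below the vehicle (3.15-fold and 3.74-fold), and while the top helveticoside dose remained 3.22-fold below, the top EEDS dose was within 1.08-fold of it, with a sign that turned under scaling to the 75th percentile. HNRNPD was at 14.34, 13.93, 13.42 and 13.81 with EEDS and at 14.16, 13.94, 13.33 and 13.05 with helveticoside. HNRNPA3, named after its values were seen and a relative of HNRNPA1, was at 14.25, 14.27, 13.57 and 13.88 with EEDS and at 14.39, 14.28, 13.50 and 13.70 with helveticoside. By this probe its low dose was near the vehicle and the later doses below it. Another of its 5 probes had log2 ratios of 0.58, 0.44 and 0.88 with rising EEDS and -0.52, -0.06 and 0.15 with rising helveticoside. The rest were below the vehicle at the middle and top doses of both agents.

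HNRNPH3, of the family that binds G-rich RNA, was the hnRNP gene with the largest rise. It was at 10.87, 11.28, 12.01 and 12.41 over the EEDS series and at 10.96, 11.01, 11.59 and 12.06 over the helveticoside series, higher at each step and 2.92-fold and 2.15-fold above the vehicle at the top. Its relatives HNRNPH1, HNRNPH2 and HNRNPF were less than 2-fold from the vehicle on every array. HNRNPL, which binds CA-rich RNA, was at 12.26, 12.30, 11.86 and 13.15 with EEDS and at 12.13, 12.50, 11.60 and 12.60 with helveticoside. HNRNPLL, its relative known for exon choice in T cells, was at 11.15, 11.32, 10.78 and 12.42 with EEDS and at 10.76, 11.19, 10.01 and 11.03 with helveticoside. In all 4 of these profiles the middle dose was the lowest array and the top dose lay above the vehicle, 2.41-fold above for HNRNPLL with EEDS. HNRNPA0 was at 10.62, 10.76, 10.84 and 10.51 with EEDS and at 10.31, 10.42, 10.58 and 10.76 with helveticoside, at most 1.36-fold above the vehicle at the middle and top doses. Abundant members with broad roles in mRNA packaging and export, such as HNRNPA2B1, HNRNPC, HNRNPK, HNRNPM and HNRNPU, were within 1.36-fold of the vehicle at the middle and top doses.

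A dose trend, the change in log2 level per step of the dose series with its standard error, was fitted over all 8 arrays with limma and called at an adjusted p under 0.05 after Benjamini-Hochberg adjustment over 19046 genes. With EEDS, 4 of the 45 genes rose and 2 fell, against 7.28% and 7.91% of all genes. CLK1 rose by 0.73 ± 0.10 per step (adjusted p = 0.0158), CLK4 by 0.74 ± 0.16 (0.0358), HNRNPH3 by 0.54 ± 0.07 (0.0146) and PTBP1 by 0.33 ± 0.06 (0.0240). HNRNPA1 fell by 0.68 ± 0.15 (0.0409) and HNRNPA1L2 fell by 0.76 ± 0.13 (0.0231). With helveticoside, 2 rose and 3 fell, against 5.48% and 5.8% of all genes: HNRNPH3 at 0.39 ± 0.07 (0.0288) and PTBP1 at 0.45 ± 0.06 (0.0189) rose, and HNRNPA1 at -0.67 ± 0.15 (0.0496), HNRNPA1L2 at -0.76 ± 0.13 (0.0280) and SRSF12 at -1.60 ± 0.22 (0.0202) fell. The SRSF12 slope uses helveticoside arrays on which its probe was not well above background, and became -0.64 with the signal as scanned, where it was still called. With the mean of all probes, the HNRNPH3 slopes became 0.25 with EEDS, still called, and 0.13 with helveticoside (adjusted p = 0.155), and HNRNPA1 lost its EEDS call (adjusted p = 0.0694). HNRNPA1 lost its helveticoside call without trend and robust estimation (adjusted p = 0.0528). When dose relative to the top dose replaced the step, 1 of the 6 EEDS calls remained, HNRNPA1L2, and CLK1, CLK4, HNRNPH3, PTBP1 and HNRNPA1 had adjusted p of 0.125, 0.289, 0.0849, 0.117 and 0.0622 in limma, while none of the 5 helveticoside calls remained. With helveticoside, the slopes of CLK1 (0.37 ± 0.10, adjusted p = 0.0660) and CLK4 (0.63 ± 0.16, adjusted p = 0.0591) missed the threshold in limma. So did those of SRSF8 (-0.55 ± 0.13, adjusted p = 0.0501), HNRNPD (-0.40 ± 0.10, 0.0604) and SRSF5 (-0.40 ± 0.11, 0.0708). CLK4, SRSF8, HNRNPD and SRSF5 were called with the signal as scanned and with normexp. SRSF8 was also called with the mean of all probes and without trend and robust estimation, but not with the authors' values or relative dose. Of the SR genes that dipped, SRSF7 had slopes that were small beside their errors, at 0.09 ± 0.35 and -0.21 ± 0.35. With helveticoside, SRSF2 and SRSF6 had larger slopes of -0.60 ± 0.26 and -0.58 ± 0.22, which were not called (adjusted p = 0.194 and 0.156 in limma). Single arrays decided the trend calls. No EEDS trend was called without the EEDS vehicle array or without the 20 μg/mL array and 2 without the 15 nM array, while no helveticoside trend was called without the 15 nM or the 60 nM array and between 2 and 3 without either vehicle array, the 1.25 μg/mL array or the 5 μg/mL array.

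The difference of the slopes between the agents was not called by limma for any of the 45 genes or any gene in all (0%), with or without trend and robust estimation. At an unadjusted p under 0.05 there were 2 of the 45, CLK1 and SRSF12, and 2.75% of all genes. The CLK1 slope was less steep with helveticoside by 0.36 per step (difference -0.36 ± 0.14, unadjusted p = 0.0406, adjusted p = 1), and the SRSF12 slope was steeper (difference -1.06 ± 0.31, unadjusted p = 0.0157, adjusted p = 1). The CLK1 difference is that of its brighter probe, with log2 ratios of 2.30 and 1.20 at the top doses of EEDS and helveticoside. Its other probe had 2.25 and 1.88 there, which lie closer together. Doses of the agents are not matched, and a missed threshold does not show that the agents acted alike.

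A straight trend does not describe a dip at the middle dose, so each step was also compared with the vehicle in limma with the 2 agents standing in for replicates and the series as a block, a fit added after the values were seen. At the middle step 5 genes rose and 8 fell, against 10.7% and 11.4% of all genes. SRSF2 (-1.75 ± 0.37, adjusted p = 0.0376), SRSF6 (-1.70 ± 0.27, 0.0210), SRSF7 (-1.47 ± 0.27, 0.0279) and SRSF8 (-1.31 ± 0.20, 0.0196) fell there, beside HNRNPA1, HNRNPA1L2, HNRNPA3 and HNRNPD. The 5 that rose were CLK1 (1.27 ± 0.28, 0.0401), CLK4 (1.73 ± 0.12, 0.0136), HNRNPH3, HNRNPUL2 and PTBP1. At the top step 10 rose and 8 fell, against 18.4% and 19.8%. CLK3 (1.02 ± 0.15, adjusted p = 0.00804), SRPK2 (0.74 ± 0.08, 0.00389), SRSF10 (0.81 ± 0.16, 0.0180) and SRSF11 (0.0442) then rose with CLK1, CLK4, HNRNPC, HNRNPH3, HNRNPL and PTBP1, while SRSF5, SRSF6, SRSF8 and SRSF12 fell with HNRNPA1, HNRNPA1L2, HNRNPA3 and HNRNPD. For SRSF12 this fit uses helveticoside arrays on which its probe was not well above background. The helveticoside vehicle array was 1.29 above the EEDS one for SRSF11 and 0.94 below it for PTBP1. SRSF2 and SRSF7 did not pass at the top step (adjusted p = 0.114 and 0.869 in limma). Between the middle and the top step, HNRNPL rose by 1.15 (adjusted p = 0.0365) and HNRNPA1 and HNRNPA1L2 fell, against 4.59% of all genes rising and 5.34% falling. SRSF7, at 1.36 above its middle step, had an adjusted p of 0.0510 in limma. At the low step no member passed (0.0105% of all genes rose and 0% fell). None passed at the middle step without either vehicle array or without either middle-dose array, and 8 passed without either low-dose array. At the top step, 10 passed without the EEDS vehicle array or without either middle-dose array, and between the middle and top steps none passed once any 1 of the 8 arrays was left out.

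Set side by side, the log2 ratios of the 45 genes under the agents had a Pearson r of 0.69 at the low doses, 0.88 at the middle doses and 0.82 at the top doses. Over all genes these were 0.27, 0.66 and 0.78. All genes include many that were not well above background on every array, unlike 43 of the 45, and no r over the 11494 that were is given here. They are descriptions across genes, which are not independent, between series that share no vehicle array, and at doses that are not matched. At the middle doses 11 genes were higher with both agents, 26 were lower with both and 8 went opposite ways. At the top doses the numbers were 21, 16 and 7. None of the 45 genes lay above its vehicle on all 3 arrays of 1 agent and below it on all 3 of the other.

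Of the 45 genes, 21 had several probes well above background, and those probes did not always move together. At 20 μg/mL EEDS the probes of 6 genes had opposite signs (HNRNPA3, HNRNPH3, HNRNPU, PTBP3, SRSF2 and SRSF7), and at 60 nM helveticoside those of 7 did (HNRNPA2B1, HNRNPA3, HNRNPH3, HNRNPLL, HNRNPU, PTBP3 and TRA2B). Probes of 1 gene lay more than 2-fold apart in 6 and 1 genes. The largest split was in HNRNPH3, whose rise above rests on its brighter probe: that probe had a log2 ratio of 1.54 with EEDS and 1.10 with helveticoside, while the other had -0.16 and -0.35. For SRSF2 the brighter probe was at -0.34 and the other at 0.73 with EEDS. In HNRNPDL the pair was at -0.11 and -1.28 at the same dose. At the same top doses, both probes of CLK1 were above the vehicle by more than 2-fold with each agent, all 3 of SRSF11 were higher with each, both of SRSF5 were lower with each, and all 7 of HNRNPA1 and HNRNPA1L2 were lower with each. Which transcripts the probes read was not examined.

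**Figure D4:**
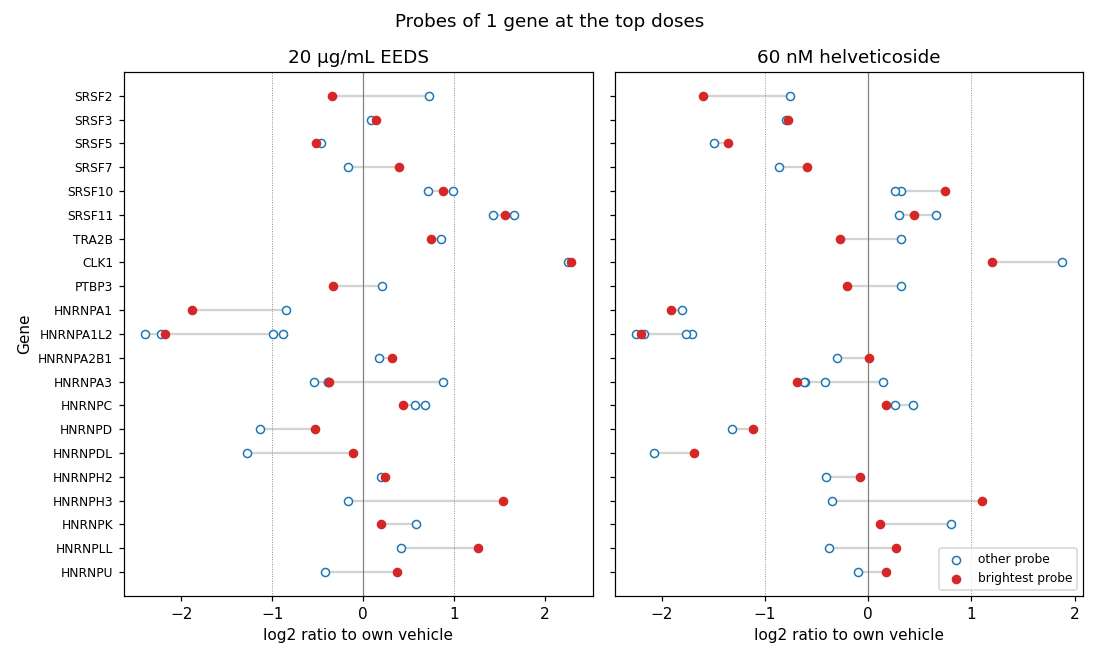
Log2 ratio to the own vehicle (horizontal axis) at 20 μg/mL EEDS (left) and 60 nM helveticoside (right) for every probe of the 21 genes with several probes well above background (rows); filled points are the brightest probe, used for all gene values, open points the others, and dotted lines mark 2-fold. The probes of HNRNPH3, SRSF2, PTBP3 and HNRNPU lie on both sides of 0 with EEDS, while those of CLK1, SRSF5, SRSF11, HNRNPA1 and HNRNPA1L2 lie on 1 side.

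The rest of the splicing machinery was described through 10 lists with 144 further genes. Their median log2 ratio was 0.45 at 20 μg/mL EEDS and 0.29 at 60 nM helveticoside, and the EEDS trend rose for 22 and fell for 1, the helveticoside trend rose for 11 and fell for 3. Over all genes 7.28% rose and 7.91% fell with EEDS and 5.48% rose and 5.8% fell with helveticoside, against which the counts of the lists below stand too. The SR-related proteins, which carry similar domains, had medians of 0.25 and 0.96 at 5 and 20 μg/mL EEDS and of -0.02 and 0.41 at 15 and 60 nM helveticoside. SRRM1, a coactivator of splicing named after its values were seen, differed from these medians, with log2 ratios of -1.04 and 0.24 at those EEDS doses and of -1.02 and -0.45 at those helveticoside doses. Of these 22 genes 3 rose in the EEDS trend, none rose with helveticoside and 1 fell with it. The NTC and step factors, which drive the catalytic steps, had medians of 0.74 and 0.53 at the top doses, with 4 and 2 of 20 rising and none falling. Genes of the U4/U6.U5 tri-snRNP had medians of 0.13 and -0.05, and 1 of 14, PRPF31, fell with each agent. Of the 16 genes of the U2 snRNP and branch site, 4 rose with EEDS and 1 with helveticoside, of 8 Sm core genes 2 and none, and of 38 other alternative splicing regulators 6 rose with EEDS and 5 with helveticoside, where 1 fell. No trend was called among the 6 U1 snRNP and LUC7-like genes, the 5 other kinases or the 5 exon junction genes.

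Nonsense-mediated decay was the list with 3 of 10 genes rising with each agent and none falling. SMG9, a subunit of the complex of the SMG1 kinase, had log2 ratios of 1.70, 2.31 and 2.71 with EEDS and 0.14, 1.69 and 2.57 with helveticoside (adjusted p = 0.0341 and 0.0356 in limma). UPF3B, which links the exon junction complex to the decay factors, was at 1.87 and 2.80 at 5 and 20 μg/mL EEDS and at 0.06 and 2.28 at 3.75 and 60 nM helveticoside (adjusted p = 0.0232 and 0.0311). Both were near the vehicle at 3.75 nM helveticoside and above it on every other treated array. Among genes of the 10 lists that were well above background on all 8 arrays, the largest differences downward at the top EEDS dose were RBMX (-1.26, adjusted p = 0.0537) and PRPF6 (-1.10, adjusted p = 0.113), which did not pass. At the top helveticoside dose they were CIRBP, a cold-inducible RNA-binding protein (-1.29, adjusted p = 0.0308), and RSRC1 (-1.18, adjusted p = 0.0242), which fell.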

How the data were processed

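RNA of A549 cells, pooled from 3 cultures per dose, was hybridised to 8 one-colour Agilent arrays, 1 per dose, in an EEDS and a helveticoside series. The authors deposited scanner intensity per spot (median signal, local background and the background-subtracted processed signal) and a table of intensity values that, from its values, they quantile-normalized within each series. The software version is not given in the sources used here. Control and outlier spots (246 to 331 per array) were left out, spots of a probe were averaged, and the processed signal was quantile-normalized over 8 arrays before log2 was taken. Of 34127 probes, 22 had only outlier spots on an array, and 24812 matched 1 gene by accession (RefSeq, GRCh38.p14). For the 4797 genes with several probes the brightest was used. A gene was kept if its signal reached 1.4 times the local background on at least 1 array of each series. Values that did not reach this limit were raised to the lowest value on their array that did, where they lay below it.

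Dose trends (intercept and slope per series, 4 residual degrees of freedom) and steps (3) were fitted over 19046 genes in R 4.3.3 by limma 3.58.1, with trend and robust estimation (statmod 1.5.0), called at an adjusted p of 0.05 and checked on simulated data. P-values measure spread about the fitted lines, not between replicates. Where a probe was not well above background, "at least" bounds replace the ratio, with the lowest signal well above background as the floor. Past 2-fold is a description with no test. The number of arrays limits the precision. The files give no slide or date, so batches other than the series were not examined.

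Levels are given for all CLK, TRA2, SRPK and PTBP genes, for members called in a trend, for the SRSF or HNRNP genes well above background with the 6 highest and the 6 lowest ratios at each top dose, and for others where stated; from the splicing lists, the 2 largest rises and falls per agent among genes well above background on all 8 arrays, with PRPF31 and SRRM1 named after their values were seen. A further list gene is not reported here. Members and lists were chosen with earlier results of these data known. Alternatives were the signal as scanned, normexp (offset 50), scaling to the 75th percentile, the authors' values, filters, the mean of all probes, dose relative to the top, variance estimation, a limit of 1.5-fold, the other vehicle and leaving out arrays. Python 3.11.15 served for the rest, with pandas 2.3.3, numpy 2.4.6 and matplotlib 3.10.9.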

Additional observations from a re-analysis of the deposited data

How the results depend on the processing

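No paired analysis was possible because each dose had 1 array and the labels carry no replicate numbers. Every result rests on single arrays, and a ratio cannot be told apart from the state of its array. Scaling to the 75th percentile moved the median of all genes to -0.20, -0.21 and -0.36 at the 3 EEDS doses and to 0.14, -0.12 and -0.18 at the helveticoside doses, so ratios are relative to that shift. No called result changed direction. Ratios at the middle and top doses that changed sign between scalings or background settings were all within 0.28 of 0. The cause of the changes below was not tested.

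The EEDS trend called 6 genes, 10 with the 75th percentile, 0 with only its own 4 arrays, between 0 and 8 with 1 array left out, and 5 without HNRNPA1L2. The helveticoside trend called 5 genes, 9 with the signal as scanned, with normexp or with genes well above background on all 8 arrays, 8 with the 75th percentile, 0 with the dose relative to the top dose or with only its own 4 arrays, and between 0 and 5 with 1 array left out. At the shared middle step 13 genes became 20 with genes well above background on all 8 arrays and between 0 and 15 with 1 array left out. At the shared top step 18 became between 10 and 17. The 3 genes that differed between top and middle step became 10 with the signal as scanned, with normexp or with the 75th percentile, 8 with the authors' values, 5 with genes detected on all 8 arrays, 14 with those well above background on all 8, and 0 with any array left out. A limit of 1.5-fold in place of 2-fold gave 12, 21 and 20 genes for EEDS where 3, 13 and 11 had passed, and 10 and 20 for the low and middle helveticoside doses where 3 and 10 had. The vehicle of the other series gave 5 genes at 1.25 μg/mL EEDS and 8 at 3.75 nM helveticoside. Genes with probes of opposite sign under helveticoside numbered 7, and 4 with the 75th percentile.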
